A study of Macaca mulatta with 6 samples.

Results

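The subunits of mitochondrial oxidative phosphorylation were described in rhesus macaque retinas 24 h after gamma knife irradiation of 1 optic nerve. Members were the genes whose platform symbol begins with NDUFA, NDUFB, NDUFC, NDUFS or NDUFV, SDH, UQCR, COX4 to COX8 or ATP5, or equals CYC1 or CYCS, and each gene was read from its brightest probe set over the 6 arrays. The rule found 69 of 14132 named genes, measured by 113 of 52024 probe sets. Of these, 56 were structural subunits: 24 of complex I, 3 of complex II, 7 of complex III, 9 of complex IV and 13 of complex V. The symbols also took in 10 assembly factors (6 named NDUFAF and 4 named SDHAF), the ATP synthase inhibitor ATP5IF1, the subunit paralogue NDUFA4L2 and 1 entry under the older symbol ATP5G1. COX4I1, COX6A1 and NDUFB8 had only probe sets that also carry other symbols and were left out, and CYCS and SDHD were not analysed here.

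The respiratory chain passes electrons from NADH through complex I, and from succinate through complex II, to complex III, cytochrome c and complex IV, where oxygen is reduced. Complexes I, III and IV pump protons out of the mitochondrial matrix, and complex V, the ATP synthase, lets them flow back and makes ATP. The retina is among the tissues that use most energy, and its photoreceptors pack mitochondria into their inner segments.

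Treated retinas lay on the side whose intraorbital optic nerve had been prescribed 15 Gy, and control retinas were the fellow eyes of the same animals, 3 male monkeys 8 to 10 years old. The control eyes were not free of radiation: they received a smaller dose than the treated eyes. RNA of the temporal retina, taken without the pigment epithelium, was hybridized to 1 single-color Affymetrix Rhesus Macaque Genome Array per retina, 3 treated and 3 control. Arrays with the same replicate number in their titles (1, 2 and 3) were taken as both retinas of 1 monkey and form a pair. All values are log2 MAS 5.0 signals, and all differences are treated minus control on the log2 scale.

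The arrays did not have the same distribution of signals. The treated array of replicate 2 had the lowest median log2 signal, 6.44, against 6.69 to 7.03 on the other 5 arrays, and 29.7% of its probe sets lay under a log2 signal of 5, against 22.6% to 25.9% on the others. With 3 pairs of arrays, the precision of each value is limited by their number. The dissection was checked with cell markers: the 7 measured rod markers had mean log2 signals of 13.94 or more, and the 1 measured oligodendrocyte gene, MBP, had 5.23. Of the 3 measured muscle genes, MYH2 and TNNT3 had mean signals of 4.13 and 4.29, and CKM had 7.13 with up to 8.75 on an array. The pigment epithelium markers TYRP1 and BEST1 had mean signals of 10.24 and 9.03, although that layer had been removed, while PMEL and TYR had 6.30 and 5.24. The 4 measured of 6 such markers summed to a linear signal of 1184 to 2473 in treated retinas, against 1955 to 2404 in control retinas.

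Most of the members were bright. Their median mean log2 signal was 12.30, 57 of 69 stood at 10 or more, and 53 lay in the brightest 10% of all probe sets, which start at 10.74. The highest mean signal was that of COX6B1, a nuclear-encoded subunit of cytochrome c oxidase (14.38), and the lowest that of COX6A2, the heart and muscle isoform of another subunit of the same enzyme (6.41). Only 5 members had a mean signal under 8, and no member fell under a log2 signal of 5 on any array. Probe sets differ in how strongly they bind, so these levels do not rank the genes. For 14 members the brightest probe set has a suffix (_s_at or _x_at) that marks probes shared with other transcripts.

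None of the members passed the test between treated and control retinas, and genes outside the rule were not covered by this result. In the fit of limma with the monkey as a block, 0 of 69 members had an adjusted p under 0.05, and the smallest adjusted p was 0.705, while 0.111% of all probe sets and 0.212% of all named genes passed. The differences were small and mostly above 0: 58 of 69 members (84.1%) had a treated minus control difference above 0, against 55.5% of named genes and 45.4% of all probe sets. The median difference over the members was 0.11, with pair medians of 0.07, 0.29 and -0.04, beside medians of 0.03 over all named genes and -0.04 over all probe sets. The members are mostly bright, and named genes within that brightest 10% had a median of 0.04, with 60.3% above 0 (n = 2791).

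Higher signals in treated retinas at an unadjusted p under 0.05 were found for 4 members, and lower signals for 0. That is 5.80% of the members, beside 5.02% of named genes higher and 3.01% lower, and beside 2.97% and 3.77% of all probe sets. The paired t-test named by the methods put 0 members at that threshold in either direction, against 4.21% of named genes higher and 2.84% lower, and 2.68% and 2.88% of all probe sets. The treated and control signals overlapped for each of the 69 members, whereas 4.30% of named genes had all treated signals above all control signals and 2.70% had them all below (3.11% and 3.53% of all probe sets). The direction was the same in 3 of 3 pairs for 18 members (26.1%), each higher in the treated retina, against 19.3% of named genes and 13.0% of all probe sets. In contrast, 0 members were lower in 3 of 3 pairs, against 13.6% of named genes, 16.1% of all probe sets and 457 of the 2791 bright named genes.

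The precision was close enough to bound most of these differences. The 95% interval of the fitted difference lay within -0.5 to 0.5 for 48 of 69 members and within -1 to 1 for 67, and the median distance from the estimate to either bound was 0.27. The widest bounds were an upper bound of 1.25 for COX6A2 and a lower bound of -0.81 for UQCRC2. Standard errors lay between 0.0857 and 0.387. Fewer cells of a type and less RNA per cell cannot be told apart in these bulk samples.

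**Figure D1:**
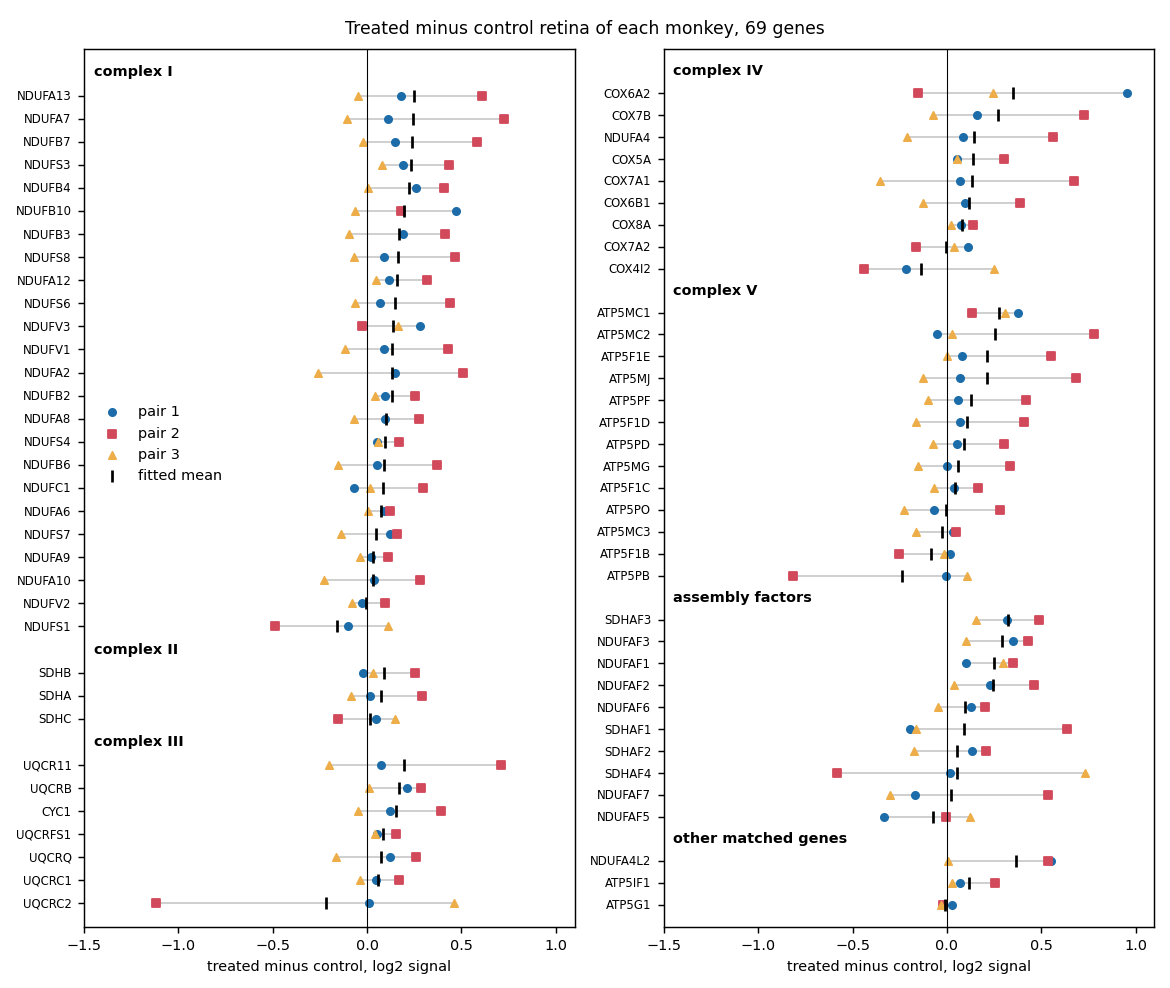
Treated minus control difference in log2 signal (x axis) of each of the 69 genes (rows, grouped by complex), with 1 marker per monkey (pairs 1 to 3) and a black bar for the fitted mean. In pair 2 57 of the 69 markers lie above 0, and in pair 3 31 do.

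The 3 monkeys did not show the same difference, and most of the shift lay in replicate 2. The difference was above 0 for 58 members in pair 1, against 55.2% of named genes and 49.5% of all probe sets. It was above 0 for 57 members in pair 2, against 55.9% and 42.0%, and for 31 in pair 3, against 49.5% and 51.6%. Of the 2791 named genes within the brightest 10% of probe sets, the difference was above 0 for 1650, 1826 and 1175 in pairs 1 to 3. It was 0.5 or more in size for 2, 17 and 1 members in the same order of pairs. Pair 2 had the largest difference in size for 60 of 69 members, against 49.4% of named genes and 47.0% of all probe sets. It had the largest for 1819 of the 2791 named genes within the brightest 10% of probe sets. The order pair 2 above pair 1 above pair 3 held for 48 (69.6%), against 25.6% of named genes, 17.0% of all probe sets and 41.7% of the named genes within the brightest 10% of probe sets. Without replicate 2, 41 of 69 members stood above 0 and the median difference was 0.01. The treated array of this pair is the one with the lowest median signal and the most dim probe sets. With each array centred on its own median, the median difference of the members was 0.20, and that of all probe sets was 0.06. The part of this array in the shift was not tested.

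Complex I, the entry point for electrons from NADH, had 22 of 24 measured subunits above 0, with a median difference of 0.13 and pair medians of 0.10, 0.31 and -0.06. In the paired fit all 18 accessory subunits measured stood above 0, between 0.03 and 0.25, with a median of 0.14, and none of them reached an unadjusted p under 0.05. Among the 6 core subunits, which carry the flavin and the iron-sulfur clusters or lie next to them, 4 stood above 0 and the median was 0.09.

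NDUFS3, a core subunit of the arm that reaches into the matrix, had log2 signals of 12.23, 13.19 and 12.69 in treated retinas of replicates 1 to 3, against 12.04, 12.76 and 12.61 in control retinas. Each treated retina was above its own fellow eye, replicate 1 was low on both sides, and the groups overlapped. The difference was 0.23 (SE 0.0998, unadjusted p = 0.0483, adjusted p = 0.736 in limma). NDUFB4, an accessory subunit of the membrane arm, had 13.38, 14.00 and 13.56 in treated retinas, against 13.12, 13.59 and 13.55 in control retinas. It too was higher in 3 of 3 pairs, by 0.01 in pair 3, and its difference was 0.22 (SE 0.105, limma adjusted p = 0.751). NDUFC1, the brightest of the complex I genes with a mean log2 signal of 13.72, had a difference of 0.08 (SE 0.104).

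The core subunit NDUFS1, which holds iron-sulfur clusters at the tip of the matrix arm, ran the other way and was named after its values were seen. It had 13.03, 12.21 and 12.79 in treated retinas, against 13.13, 12.70 and 12.68 in control retinas. The treated retina of replicate 2 was the lowest of all 6, and the difference of -0.16 (SE 0.123, limma adjusted p = 0.798) rested on pair 2, at -0.49. NDUFA7, an accessory subunit also named after its values were seen, had 11.88, 12.88 and 12.38 in treated retinas, against 11.76, 12.15 and 12.48 in control retinas. Its pair 2 difference was 0.72 and its pair 3 difference -0.11, so that NDUFA7 and NDUFS1 differed in opposite directions in pair 2.

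Complex II, succinate dehydrogenase, links the tricarboxylic acid cycle to the chain, and its 3 measured subunits differed little. SDHA, the flavoprotein that oxidizes succinate, had 12.33, 13.11 and 12.74 in treated retinas, against 12.31, 12.82 and 12.82 in control retinas, a difference of 0.07 (95% interval -0.16 to 0.31). SDHB, the iron-sulfur subunit, had 11.87, 12.35 and 12.06 in treated retinas, against 11.90, 12.10 and 12.03 in control retinas, a difference of 0.09 (-0.13 to 0.31). SDHC, a membrane anchor, had 10.81, 10.89 and 10.91 in treated retinas, against 10.76, 11.04 and 10.76 in control retinas, a difference of 0.01 (-0.22 to 0.25). The groups overlapped for each of the 3 genes, and the intervals leave room for shifts of up to 0.31 upward.

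Complex III, the cytochrome bc1 complex, had 6 of 7 measured subunits above 0, with a median of 0.08 and pair medians of 0.08, 0.26 and -0.04. CYC1, the cytochrome c1 subunit that hands electrons to cytochrome c, had 12.89, 13.57 and 13.25 in treated retinas, against 12.77, 13.18 and 13.30 in control retinas, a difference of 0.15 (SE 0.107, limma adjusted p = 0.778). UQCRB, an accessory subunit, had a difference of 0.17 (SE 0.0951), higher in 3 of 3 pairs on its brightest probe set. Dimmer UQCRB probe sets, with mean log2 signals of 10.62, 9.69 and 8.38, had differences of -0.22, -0.14 and 0.08. The brightest gene of the complex, the accessory subunit UQCRQ, had 0.07 (SE 0.109). The Rieske iron-sulfur protein UQCRFS1, named after its values were seen, was close in all pairs, at 0.05, 0.15 and 0.04.

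The exceptions in complex III were a small and a large subunit with opposite differences in pair 2. UQCR11, a small accessory subunit, had 12.68, 14.31 and 13.44 in treated retinas, against 12.60, 13.60 and 13.64 in control retinas. UQCRC2, the core protein on the matrix side, had 12.49, 11.09 and 11.94 in treated retinas, against 12.48, 12.21 and 11.48 in control retinas. For UQCR11 the treated retina of replicate 2 was the highest of 6 and for UQCRC2 it was the lowest, with pair 2 differences of 0.71 and -1.12. Both genes were named after their values were seen. Neither passed the test, at 0.19 (SE 0.163, adjusted p = 0.814) for UQCR11 and -0.22 (SE 0.255, adjusted p = 0.871) for UQCRC2 in limma.

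**Figure D2:**
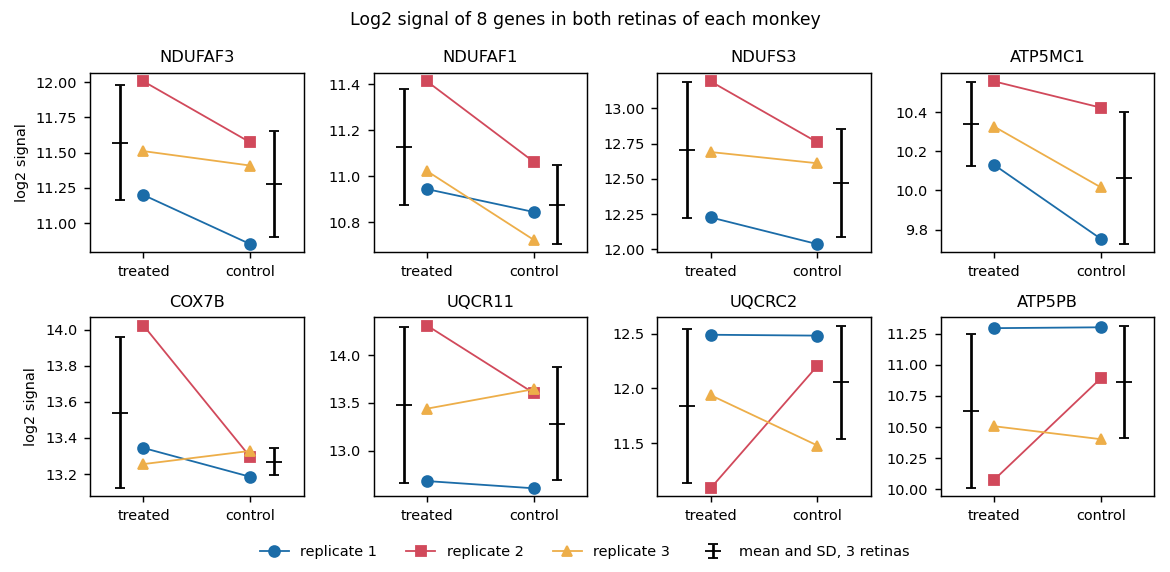
Log2 signal (y axis, a scale of its own in each panel) of 8 genes in treated and control retinas (x axis), with lines joining both retinas of a monkey and black bars for the mean and SD of 3 retinas. NDUFAF3, NDUFAF1, NDUFS3 and ATP5MC1 slope the same way in 3 of 3 monkeys, whereas replicate 2 carries the differences of COX7B, UQCR11, UQCRC2 and ATP5PB.

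Complex IV, cytochrome c oxidase, had 7 of 9 measured subunits above 0, with a median of 0.13 and pair medians of 0.09, 0.31 and 0.02. COX7B, an accessory subunit, had 13.34, 14.02 and 13.26 in treated retinas, against 13.18, 13.29 and 13.33 in control retinas, a difference of 0.27 (SE 0.149, limma adjusted p = 0.753). Only the treated retina of replicate 2 stood apart, 0.73 above its fellow eye, and the other 5 retinas lay between 13.18 and 13.34. The widely expressed subunits COX5A and COX6B1 had differences of 0.14 (SE 0.0980) and 0.12 (SE 0.119).

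Several oxidase subunits exist as isoforms that other tissues favour. COX7A1, the heart and muscle isoform, was bright, with 11.87, 12.86 and 12.36 in treated retinas, against 11.80, 12.19 and 12.71 in control retinas. Its pair 2 and pair 3 differences, 0.68 and -0.35, had opposite signs, and its difference was 0.13 (SE 0.175). The probe set of COX7A1 is among the 14 with shared probes. COX4I2, the isoform known from lung, had 8.35, 6.27 and 7.07 in treated retinas, against 8.57, 6.72 and 6.82 in control retinas, with both retinas of replicate 1 highest, and a difference of -0.14 (SE 0.260). COX6A2 had 6.09, 7.10 and 6.56 in treated retinas, against 5.13, 7.25 and 6.32 in control retinas, a difference of 0.35 with the largest standard error of the members, 0.387. The muscle enzyme gene CKM, which marks stray eye muscle, had 6.18, 4.05 and 8.54 in treated retinas, against 6.60, 8.66 and 8.75 in control retinas. The summed linear signal of the 3 measured of 6 muscle markers lay between 62.0 and 402 in treated retinas, against 198 to 470 in control retinas, and its part in the isoform signals was not tested.

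Complex V had 9 of 13 measured subunits above 0, with a median of 0.09 and pair medians of 0.04, 0.30 and -0.08. By its parts, the 4 measured subunits of F1 (the catalytic ATP5F1B and the central stalk subunits ATP5F1C, ATP5F1D and ATP5F1E) had a median of 0.08. The 4 of the peripheral stalk had 0.04, the 3 of the c ring 0.25 and the 2 other membrane subunits 0.14. ATP5F1E, a small subunit of F1, had a difference of 0.21 (SE 0.124, limma adjusted p = 0.754). The catalytic beta subunit ATP5F1B, named after its values were seen, had -0.08 (SE 0.0986). The brightest of the complex, the membrane subunit ATP5MG, had 0.06 (SE 0.117).

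The c ring turns as protons pass through it, and its subunit is made from 3 genes that encode the same mature protein. ATP5MC1 had 10.13, 10.56 and 10.33 in treated retinas, against 9.75, 10.42 and 10.02 in control retinas, higher in 3 of 3 pairs by 0.38, 0.13 and 0.31, and the groups overlapped. Its difference was 0.27 (SE 0.106, unadjusted p = 0.0336, adjusted p = 0.730 in limma). ATP5MC2 had 8.58, 8.93 and 8.72 in treated retinas, against 8.63, 8.15 and 8.69 in control retinas, so that its difference of 0.25 (SE 0.198) came from pair 2 alone, in which the control retina was the lowest of 6. ATP5MC3, the brightest of the 3, had 13.50, 14.25 and 14.06 in treated retinas, against 13.47, 14.20 and 14.22 in control retinas, a difference of -0.03 (SE 0.0954). The entry under ATP5G1, an older symbol of ATP5MC1, had a mean log2 signal of 13.19 and a difference of -0.01 (SE 0.0859), beside the 0.27 of ATP5MC1, so the 2 entries differed in signal and in pattern.

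ATP5PB, a long subunit of the peripheral stalk named after its values were seen, was the lowest of the members by its fitted difference, -0.24 (SE 0.175, limma adjusted p = 0.787). It had 11.29, 10.08 and 10.51 in treated retinas, against 11.30, 10.89 and 10.40 in control retinas. The treated retina of replicate 2 was again the lowest of 6, 0.82 below its fellow eye, while pairs 1 and 3 differed by -0.01 and 0.10.

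The assembly factors, which help build the complexes without staying in them, held 2 of the 4 members at an unadjusted p under 0.05. NDUFAF3, an assembly factor of complex I, had 11.20, 12.01 and 11.51 in treated retinas, against 10.85, 11.57 and 11.41 in control retinas, a difference of 0.29 (SE 0.100, unadjusted p = 0.0201, adjusted p = 0.705 in limma). NDUFAF1, which acts on the same complex, had 10.94, 11.41 and 11.02 in treated retinas, against 10.84, 11.06 and 10.72 in control retinas, a difference of 0.25 (SE 0.0978, unadjusted p = 0.0358, adjusted p = 0.733). Both were higher in 3 of 3 pairs with overlapping groups. Of the 10 matched factors 9 stood above 0, with a median of 0.09 and pair medians of 0.11, 0.39 and 0.07.

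Of the complex II factors, SDHAF3 had the highest fitted difference of the matched factors, 0.32 (SE 0.219), on a mean log2 signal of 7.56, and SDHAF4 had pair differences of 0.01, -0.58 and 0.73. Both were named after their values were seen. Of the matched genes that are no subunits, NDUFA4L2, a paralogue known to respond to low oxygen, was dim, with 6.84, 6.61 and 7.30 in treated retinas, against 6.28, 6.07 and 7.30 in control retinas. It differed by 0.37 (SE 0.318, limma adjusted p = 0.818), the highest fitted difference of the members, and by 0.01 in pair 3.

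Replicate 1 stood apart from the other monkeys. Its 2 retinas averaged lower by a median of 0.53 than those of replicate 2 and 0.38 than those of replicate 3, while replicates 2 and 3 differed by a median of 0.14, less than the 0.29 between the eyes of replicate 2. Both retinas of replicate 1 lay below the other 4 for 47 of 69 members (68.1%), against 23.2% of named genes and 14.4% of all probe sets, and above them for 7 members, against 17.6% of named genes and 22.6% of all probe sets. The treated retina of replicate 2 was the highest of 6 for 48 members (69.6%), against 25.8% of named genes and 14.5% of all probe sets. Measured from each gene's mean over the 6 arrays, the median member stood at -0.25, 0.36 and 0.05 in treated retinas of replicates 1 to 3, against -0.32, 0.06 and 0.07 in control retinas.

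The control retinas alone showed the same order for replicate 1. The control retina of replicate 1 was below both other control retinas for 57 of 69 members (82.6%), against 40.8% of named genes, by a median of 0.39 below replicate 2 and 0.41 below replicate 3. By complex, both retinas of replicate 1 were the lowest pair for 21 of 24 genes of complex I, 2 of 3 of complex II, 5 of 7 of complex III, 5 of 9 of complex IV, 8 of 13 of complex V and 4 of 10 assembly factors. NDUFS1, ATP5PB, UQCRC2 and COX4I2 were among the 7 that ran the other way, with both retinas of replicate 1 above the other 4. The arrays of replicate 1 also had the highest median log2 signals over all probe sets, 6.98 (treated) and 7.03 (control). Measured from each gene's mean, the 2791 bright named genes had medians of -0.10 (treated) and -0.14 (control) in replicate 1. Their median was 0.15 in the treated retina of replicate 2. These medians had the signs of the members' medians and were smaller in size. Each replicate was taken as 1 animal, so these differences describe 3 animals and were not tested. The part of the arrays' signal distributions in them was not tested either.

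**Figure D3:**
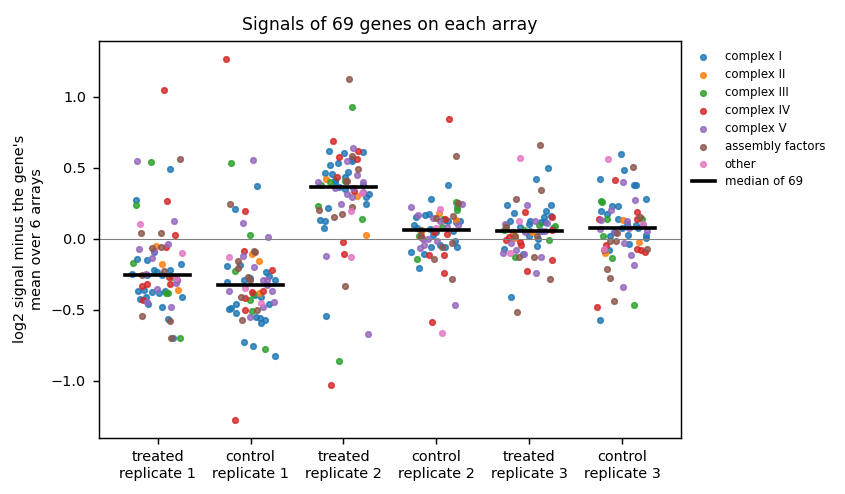
Log2 signal of each of the 69 genes minus its own mean over the 6 arrays (y axis), on each array (x axis, treated left of control within a replicate), with points colored by complex and black bars for the median. The medians are -0.25 (treated) and -0.32 (control) in replicate 1, 0.36 (treated) and 0.06 (control) in replicate 2, and 0.05 (treated) and 0.07 (control) in replicate 3.

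Several members were measured by more than 1 probe set, and the dimmer ones did not follow the brightest closely. The 32 genes with several probe sets had 44 others besides the brightest, with a median mean log2 signal of 8.54, and their median difference was 0.03. For 19 of the 44 the sign was opposite to that of the brightest probe set of the same gene, and 3 differed from it by over 0.5. None passed an adjusted p of 0.05 (the smallest was 0.734 in limma), while at an unadjusted p under 0.05 the treated retinas had 2 of them higher and 1 lower, a share near the 2.97% and 3.77% of all probe sets.

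Those 3 probe sets were named after their values were seen. A probe set of the assembly factor NDUFAF7 had 4.81, 4.78 and 5.18 in treated retinas, against 2.03, 4.76 and 0 in control retinas, a difference of 2.66 (SE 1.08) on signals at the low end of the array. The brightest NDUFAF7 probe set differed by 0.02. A probe set of NDUFV3, an accessory subunit of complex I, had 6.37, 5.10 and 7.52 in treated retinas, against 6.95, 7.19 and 7.82 in control retinas, a difference of -0.99 (SE 0.409), and the brightest NDUFV3 probe set 0.14. A probe set of UQCRC1, a core protein of complex III, had 0.26 (SE 0.103), beside 0.06 on the brightest.

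**Figure D4:**
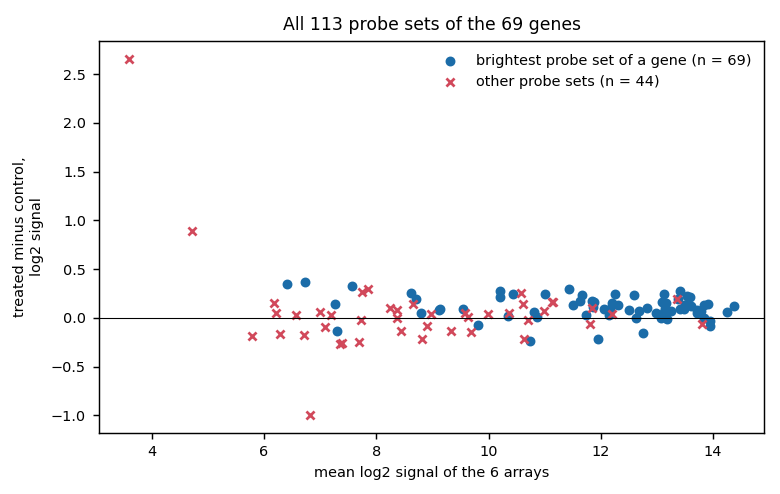
Treated minus control difference in log2 signal (y axis) against the mean log2 signal of the 6 arrays (x axis) for the brightest probe set of each gene (filled circles, n = 69) and the other probe sets of the same genes (crosses, n = 44). The differences farthest from 0, 2.66 for NDUFAF7 and -0.99 for NDUFV3, belong to dimmer probe sets.

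Other nuclear genes of mitochondria were followed beside the respiratory chain genes. Of 62 measured ribosomal proteins that translate the mitochondrial genome, 57 (91.9%) stood above 0, against 55.5% of named genes, with a median difference of 0.18 and pair medians of 0.14, 0.38 and 0.01. Of these, 8 (12.9%) reached an unadjusted p under 0.05 upward and 1 downward, against 5.02% and 3.01% of named genes, and the smallest adjusted p in limma was 0.634. MRPL57, a protein of the large subunit, had 12.03, 12.65 and 12.27 in treated retinas, against 11.87, 12.09 and 11.93 in control retinas, a difference of 0.36 (SE 0.103). Of 29 further assembly factors listed, 23 were measured, with a median of 0.09, pair medians of 0.07, 0.22 and -0.01, 18 above 0, and none at an unadjusted p under 0.05.

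Genes that supply or accompany the chain had list medians closer to 0. In the tricarboxylic acid cycle, 10 of 16 listed genes were measured, with a median of 0.07 and 8 above 0. Its succinyl-CoA ligase subunit SUCLG1 was higher by 0.23 (SE 0.0894, unadjusted p = 0.0373, adjusted p = 0.734 in limma), with 12.05, 12.22 and 11.95 in treated retinas, all above the 11.85, 11.88 and 11.80 in control retinas. DLD, the dihydrolipoamide dehydrogenase shared by several complexes, differed by -0.48 (SE 0.224, adjusted p = 0.751). Carriers and membrane proteins, such as the ATP/ADP carrier SLC25A4 and the channel VDAC1, had a median of 0.04 over 9 of 16 listed genes, and no gene of that list reached an unadjusted p under 0.05.

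Regulators of mitochondrial biogenesis stood mostly below 0: of 9 measured of 14 listed, 3 were above 0, and the median was -0.08 with pair medians of -0.09, -0.16 and -0.08. PPARGC1B, a coactivator of the nuclear genes of the chain, had 10.17, 9.55 and 10.79 in treated retinas, against 10.38, 10.24 and 10.86 in control retinas, lower in 3 of 3 pairs with overlapping groups, at -0.32 (SE 0.136, unadjusted p = 0.0461, adjusted p = 0.736 in limma). In the list of mitochondrial stress and reactive oxygen species, 7 of 11 were measured, with a median of 0.09. SOD2, the superoxide dismutase of the mitochondrial matrix, was the only gene of these mitochondrial lists past the threshold. It had 11.95, 12.27 and 11.87 in treated retinas, all above the 9.80, 10.24 and 10.78 in control retinas, and rose by 1.76 (SE 0.194, limma adjusted p = 0.0303). That call ended with no replicate block (adjusted p = 0.401), under the methods' t-test (0.879) and without replicate 1 (0.158). With no replicate block and under that t-test, 0 of all 52024 probe sets passed, so those losses are not particular to SOD2. A dimmer SOD2 probe set differed by -0.11.

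**Figure D5:**
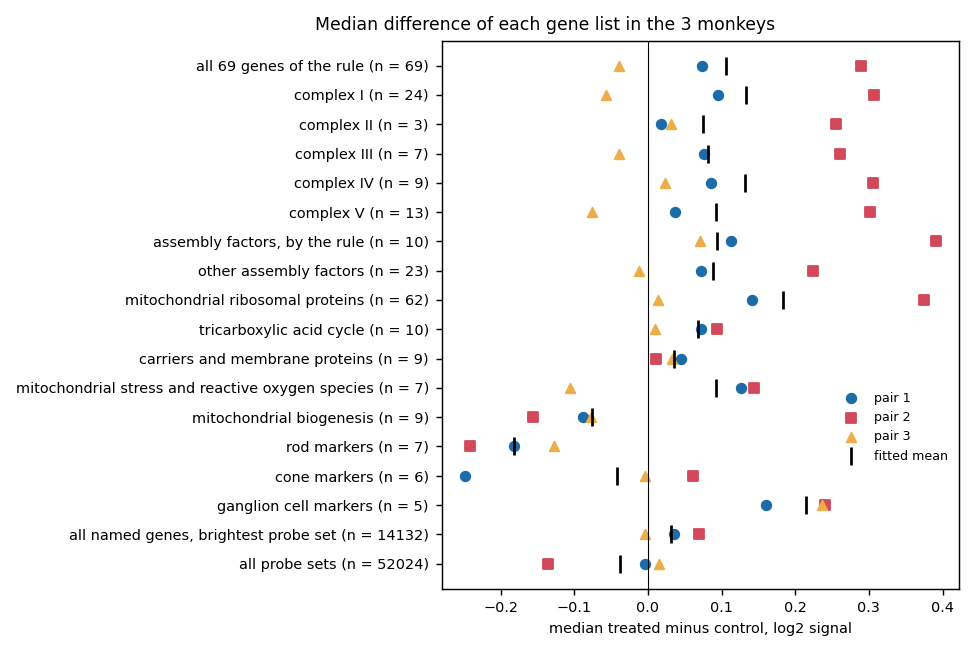
Median treated minus control difference in log2 signal (x axis) of each gene list (rows, n genes measured), with 1 marker per monkey and a black bar for the median fitted difference. The pair 2 median is 0.29 for the 69 genes and 0.38 for the mitochondrial ribosomal proteins, against -0.24 for the rod markers.

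Photoreceptors and ganglion cells, both rich in mitochondria, were followed by their markers. Of 10 rod markers listed, 7 were measured and 0 stood above 0, with a median of -0.18 and pair medians of -0.18, -0.24 and -0.13. Their summed linear signal lay between 155074 and 215318 in treated retinas, against 178698 to 229313 in control retinas, and was lowest in replicate 1 in both groups. None passed an adjusted p of 0.05, and 2 were lower at an unadjusted p under 0.05, against 3.01% of named genes. These were PDE6A at -0.34 (SE 0.110, adjusted p = 0.686) and CNGA1 at -0.24 (SE 0.0895, adjusted p = 0.729) in limma. The 6 measured of 7 cone markers had a median of -0.04, and of them GNAT2 was lower at that threshold, by -0.30 (SE 0.116, limma adjusted p = 0.733). The 5 measured of 9 ganglion cell markers, each above 0, had a median of 0.22. At an unadjusted p under 0.05, 3 of these 5 were higher (NEFH, POU4F2 and RBPMS, by 0.22, 0.36 and 0.41), against 5.02% of named genes, with no adjusted p under 0.601. Their summed linear signal lay between 18877 and 24307 in treated retinas, against 16185 to 20895 in control retinas.

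Some glial markers also differed between the groups, in both directions. GFAP, the intermediate filament of astrocytes and reactive Müller cells, had 12.93, 14.03 and 12.07 in treated retinas, all above the 10.67, 11.21 and 10.71 in control retinas, and rose by 2.14 (SE 0.235, limma adjusted p = 0.0303). That call ended with no replicate block (adjusted p = 0.851), under the methods' t-test (0.879) and without replicate 1 (0.158). With no replicate block and under that t-test, 0 of all 52024 probe sets passed, so those losses are not particular to GFAP. Of the other astrocyte markers, ALDH1L1 differed by 0.12 (SE 0.290), and PAX2 by 1.66 (SE 0.796) on a mean log2 signal of 3.94. Of 6 Müller glia markers listed, 5 were measured, with 3 above 0 and a median of 0.01. RLBP1 (-0.45) and GLUL (-0.28) were lower and SLC1A3 (0.58) and CRYM (0.27) higher at an unadjusted p under 0.05 in limma. The smallest adjusted p of that list was 0.164. The 6 microglia and leukocyte markers had a median of 0.63, with 5 above 0. Of them, 3 were higher at an unadjusted p under 0.05, against 5.02% of named genes, the smallest adjusted p being 0.675 in limma. Their summed linear signal lay between 1860 and 2159 in treated retinas, against 1524 to 2006 in control retinas. The medians of the respiratory chain genes and of the rod markers thus lay on opposite sides of 0 in pairs 1 and 2, and the part of cell makeup in either was not tested.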

How the data were processed

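RNA of 3 treated and 3 control retinas was hybridized to 1 array each. The authors deposited log2 values of MAS 5.0 signals, computed with GeneSpring 11.0, an algorithm that brings every array to one mean signal without a step between arrays, so that a shift in the shape of an array's distribution stays in its values. Detection calls were not used here.

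Paired differences were estimated for each of 52024 probe sets in R 4.3.3 with limma 3.58.1 (lmFit, then eBayes with an intensity trend, 7.60 moderated degrees of freedom), with no filter and with the monkey as a block. Adjusted p-values are Benjamini-Hochberg values over the whole array. The methods compare both retinas of a monkey, and arrays were paired by the replicate number in their titles, which was taken as the monkey. Deviations of same-numbered arrays from their group means correlated at 0.357, 0.137 and 0.161. Those of arrays with unlike numbers correlated at -0.243 to 0.104. Genes were named by the platform annotation, from probe sets with 1 symbol (24956). Of the 69 members, 68 had a gene identifier in the reference's gene table, each with the same symbol, and ATP5G1 had none. Medians over lists are descriptions, since genes on shared arrays are not replicates.

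Members and lists were chosen with earlier results of these data known. The genes named were those at an adjusted or unadjusted p under 0.05, the SDH genes, CYC1, tissue isoforms and subunit c genes. In each complex the 2 with the largest moderated statistic and the 1 with the highest signal were named. In each other list the 2 with the largest statistic were named. Some of all these were left out. VDAC1, SLC25A4, NEFH, GNAT2, PAX2, ALDH1L1 and the Müller glia genes were added after their values were seen. So were the muscle, oligodendrocyte and pigment epithelium genes and those so described. Alternatives were the methods' paired t-test, no replicate block, no trend in the variance prior, median centring, quantile normalization, a minimum mean log2 signal of 6, a floor of 5, the mean of all probe sets of a gene, structural subunits alone, and leaving out each replicate. The fit was tested on simulated data. Python 3.11.15 with matplotlib 3.10.9 drew the figures.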

Additional observations from a re-analysis of the deposited data

How the results depend on the processing

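No member passed an adjusted p of 0.05 under any setting tried, in fits of limma or by the methods' t-test. The smallest adjusted p of a member lay between 0.394 without replicate 2 and 0.99994 with no replicate block. Under the methods' t-test, with no replicate block, with no trend in the variance prior and with the floor, 0 of all 52024 probe sets passed. In those settings the absence of calls is therefore not particular to the members. The number higher at an unadjusted p under 0.05, 4 in the paired fit, was 0 with the methods' t-test, 0 without the pairing (no replicate block), 0 with no trend in the variance prior and 2 among structural subunits alone, and 0 (without replicate 1) to 11 (without replicate 3) on leaving out 1 replicate, while the number lower was 0 to 2, the 2 without replicate 3. The cause was not tested.

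Leaving out 1 replicate moved the median difference of the members between 0.01 (without replicate 2) and 0.19 (without replicate 3), and the count above 0 between 41 and 60. The median of complex V was -0.02 without replicate 2, and that of the members was 0.20 with median centring and 0.09 with quantile normalization. With the mean of all probe sets of a gene, the difference was -0.0285 for UQCRB and -0.0188 for ATP5MG. Median centring gave 0.0889 for ATP5G1, 0.0691 for ATP5MC3 and 0.0136 for ATP5F1B, and put 56.7% of all probe sets above 0, against 45.4% as deposited.

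Signs also turned on leaving out 1 replicate. The difference ranged between -0.0533 and 0.0986 for SDHC, -0.0255 and 0.158 for NDUFC1, -0.0335 and 0.153 for SDHA, -0.0225 and 0.191 for UQCRQ, -0.0155 and 0.243 for COX6B1, and -0.0762 and 0.168 for ATP5MG. It ranged between -0.329 and 0.0171 for COX4I2, -0.142 and 0.373 for COX7A1, -0.0109 and 0.405 for ATP5MC2, -0.295 and 0.00410 for NDUFS1, -0.556 and 0.234 for UQCRC2, and -0.411 and 0.0486 for ATP5PB. For UQCR11 it ranged between -0.0643 and 0.392, for ATP5F1B between -0.132 and 0.000606, for ATP5G1 between -0.0248 and 0.00320, for ATP5MC3 between -0.0667 and 0.0413, and for SDHAF4 between -0.285 and 0.373. Of 473 values of single genes under another setting, 439 kept their direction and side of the threshold. The 11 that lost a call were of SOD2 and GFAP. Besides those given with their values, both had an adjusted p in limma of 0.749 with the floor and 0.854 with no trend in the variance prior. In these 2 settings 0 of all 52024 probe sets passed. SOD2 also had 0.101 with the mean of all probe sets. Of 137 counts and medians over the members, 130 moved by less than 1.5 times for a count or 1 SD of the pair medians for a median. Those limits are wide, since the pair medians of the members ran from -0.04 to 0.29. A value within them is not thereby shown to be stable. With 3 pairs, a difference much under 0.27, the median distance from an estimate to its 95% bound, could not be told from 0.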
